A study of Homo sapiens with 26 samples.

Results

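The genes described here changed with doxycycline in only 1 of 2 settings, tumours or cultured cells, or changed oppositely in the 2 settings. In both settings doxycycline was given to induce a RUNX1T1 hairpin. KELLY is an established human neuroblastoma cell line with amplified MYCN. For each gene symbol, the log2 fold change between xenografts labelled RUNX1T1 knock-out and control xenografts (4 libraries each) was set against the log2 fold change between doxycycline and DMSO in cultured cells of the line named shAMB (3 libraries each). A gene was taken when it passed an adjusted p of 0.05 in only 1 setting, or in both with opposite signs, and when the difference between its 2 log2 fold changes also passed 0.05. These criteria gave 610 genes of 14670 that were tested in both tables and of 26485 genes listed.

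The control xenografts are labelled wild-type and came from mice on control food. The other xenografts are labelled RUNX1T1 KO and came from mice on doxycycline food. Although the titles call them PDX, the labels give KELLY as the cell line for all tumours. The labels do not name a hairpin for the xenografts. The paper states that its KELLY xenografts carried the RUNX1T1 hairpin built on an Ambion siRNA sequence. It also states that RNA was sequenced with this hairpin in culture and in tumours, and with its other RUNX1T1 hairpin in culture only. The name shAMB points to the Ambion hairpin, so both settings probably share a hairpin, although the labels do not state this. According to the methods of the study, KELLY cells that carried a doxycycline-inducible hairpin in a lentiviral vector were grown under the skin of female NOD SCID gamma mice, which lack functional lymphocytes. The knock-out label therefore describes a hairpin and not a deleted gene, and control and labelled knock-out tumours were grown from hairpin cells. Cultured cells of the shAMB line, and of the lines sh4 (another RUNX1T1 hairpin) and EV (empty vector), were treated for 72 h. In the culture tables the treatment appears only as Neg or Pos, taken here to mean DMSO and doxycycline. No empty vector xenograft was analysed here, so the effect of doxycycline food on its own cannot be told apart from that of the hairpin in tumours. The time of tumour collection is not given in the labels. Where nothing states that samples came from separate cultures or mice, p-values measure only the spread between these samples.

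RUNX1T1 is a transcriptional corepressor: it does not bind DNA itself but joins DNA-bound factors to histone deacetylases. KELLY cells belong to the adrenergic type of neuroblastoma, in which factors such as HAND2 and GATA3 hold the sympathetic neuroblast identity and MYCN with its partner MAX drives growth. A tumour adds a blood supply, host cells, low oxygen and a growth history that a culture dish lacks.

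Total expected counts ranged from 47346100 to 62378100 in the xenografts and from 38306200 to 54736700 in the shAMB libraries. Small RNA genes took 7.05% to 18.3% of the counts in xenografts and 0.717% to 1.55% in shAMB libraries, and the part of this gap in the results below was tested only by leaving these genes out, which gave 921 genes that differed in place of 862. Levels are given in CPM (counts divided by the library total and scaled to a common size) after TMM normalization within each table. The xenograft and culture tables were normalized separately, so only changes within a table were compared. Each adjusted p is from edgeR's quasi-likelihood test, with the Benjamini-Hochberg method applied across every gene tested in that comparison.

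RUNX1T1 RNA checks the labels first. Its levels were 34.3, 43.1, 30.0 and 34.4 CPM in control xenografts and 24.3, 35.2, 27.3 and 33.9 CPM in the labelled knock-out xenografts. In shAMB cells they were 40.8, 42.0 and 39.9 CPM with DMSO and 41.3, 44.1 and 42.2 CPM with doxycycline. The groups overlapped in both settings, and neither the log2 fold change in xenografts (−0.23 ± 0.15 SE, adjusted p = 0.229) nor that in shAMB cells (0.06 ± 0.05, adjusted p = 0.378) passed the test. With the GC and length trends described below removed, the xenograft value was −0.33 and passed (adjusted p = 0.0223), while that in shAMB cells was 0.04 (adjusted p = 0.49). RNA level thus gave no firm check of the knock-down, and protein was not analysed here. The paper itself reports less RUNX1T1 protein in KELLY cells after 72 h of doxycycline with both of its hairpins. It also reports that RUNX1T1 staining was lost in KELLY xenografts after knock-down. MYCN rose in both settings, by 1.46 ± 0.14 in xenografts and 1.57 ± 0.08 in shAMB cells on the log2 scale, and MAX fell in both, by 0.48 ± 0.10 and 0.59 ± 0.05. Neither the MYCN difference (−0.11, adjusted p = 0.685) nor the MAX difference (0.11, adjusted p = 0.528) passed the test.

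Most genes that passed the test in both settings moved in the same direction, and more genes passed in only 1 setting than in both. In xenografts 6555 of 15960 genes tested (41.1%) changed, and in shAMB cells 9840 of 14905 (66.0%). The spread between replicates, as edgeR's median coefficient of biological variation, was 0.19 in xenografts and 0.12 in culture. It was 0.14 in the fit for the difference. Fewer genes pass where the spread is larger, so these counts, and those for 1 setting only, do not measure how broad each response was. Of the genes tested in both, 2525 rose in both and 2448 fell in both, whereas 50 rose in xenografts and fell in shAMB cells and 48 did the reverse. In shAMB cells alone 2967 rose and 1708 fell, and in xenografts alone 437 rose and 635 fell, before the test of the difference. Across the 14670 genes the 2 log2 fold changes had a Pearson's r of 0.74 and a Spearman's rho of 0.71. These are correlations across genes, which are not independent replicates. The 2 effects share no libraries. The difference itself passed for 862 genes (5.88%), 270 with a higher effect in xenografts (1.84%) and 592 with a lower one (4.04%), and 4173 genes had an unadjusted p under 0.05. A further 248 of the 862 moved in the same direction in both settings by different amounts, and 4 passed in neither setting.

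The 610 genes fell into 6 classes. In xenografts only, 41 genes rose and 105 fell. In shAMB culture only, 265 rose and 106 fell. Another 49 rose in xenografts and fell in shAMB culture, and 44 did the opposite. The difference was at least 1 on the log2 scale for 233 of the 610 genes. Of these genes 569 were protein coding.

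**Figure D1:**
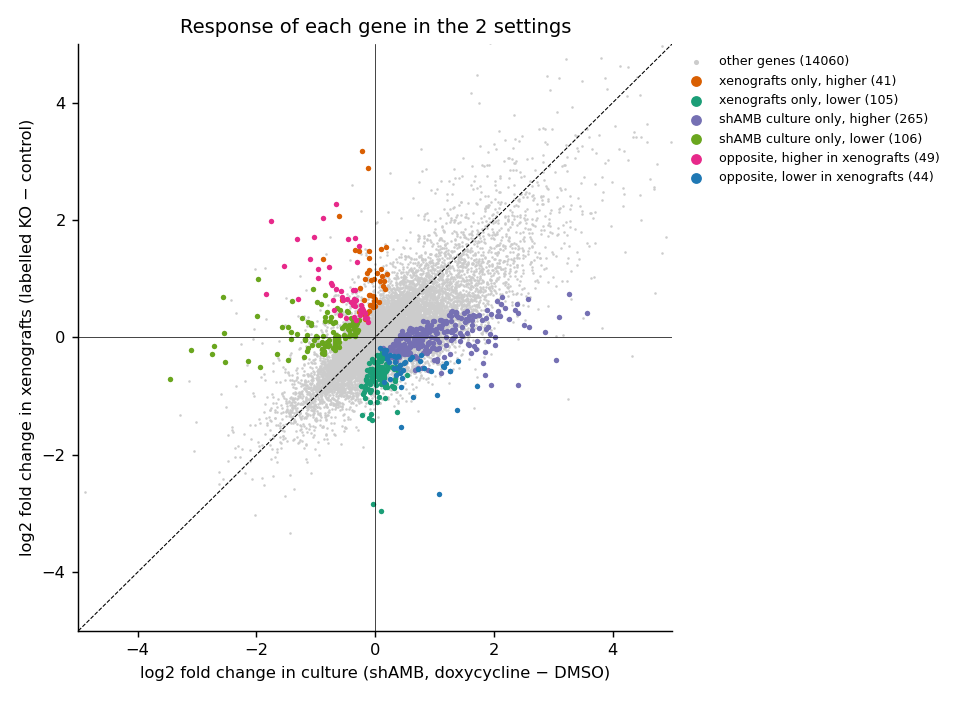
Each point is 1 of 14670 genes, with its log2 fold change in shAMB culture on the x axis and in xenografts on the y axis (dashed line, equal effects), and the 6 classes are coloured. The 41 and 105 xenograft-only genes lie along the vertical axis and the 265 and 106 culture-only genes along the horizontal axis, and 25 genes with a log2 fold change beyond 5 are outside the plot.

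The number of genes that differed depended on single libraries. Without control xenograft replicate 1 it was 2900 and without labelled knock-out xenograft replicate 1 it was 4112. It fell to 474 and 430 without control xenograft replicates 3 and 4, to 372 and 541 without labelled knock-out replicates 2 and 3, to 314, 224 and 399 without shAMB DMSO replicates 1, 2 and 3, and to 478, 287 and 257 without shAMB doxycycline replicates 1, 2 and 3. It was 670 without control replicate 2 and 694 without labelled knock-out replicate 4. With DESeq2's size factors in place of TMM, 676 genes differed, 50.1% of them higher in xenografts against 31.3% with TMM. No member changed the sign of its difference under any of these settings. Leaving out 1 library at a time, 143 members passed each of the 14 times. In 25 alternatives, the 14 included, 74 members kept a difference that passed each time. These 25 leave out the stricter demand for a difference of at least 1, and "all 25 alternatives" below has this meaning. These 74 were picked after their values were seen, so their stability is a description, and they supply several of the examples below.

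**Figure D2:**
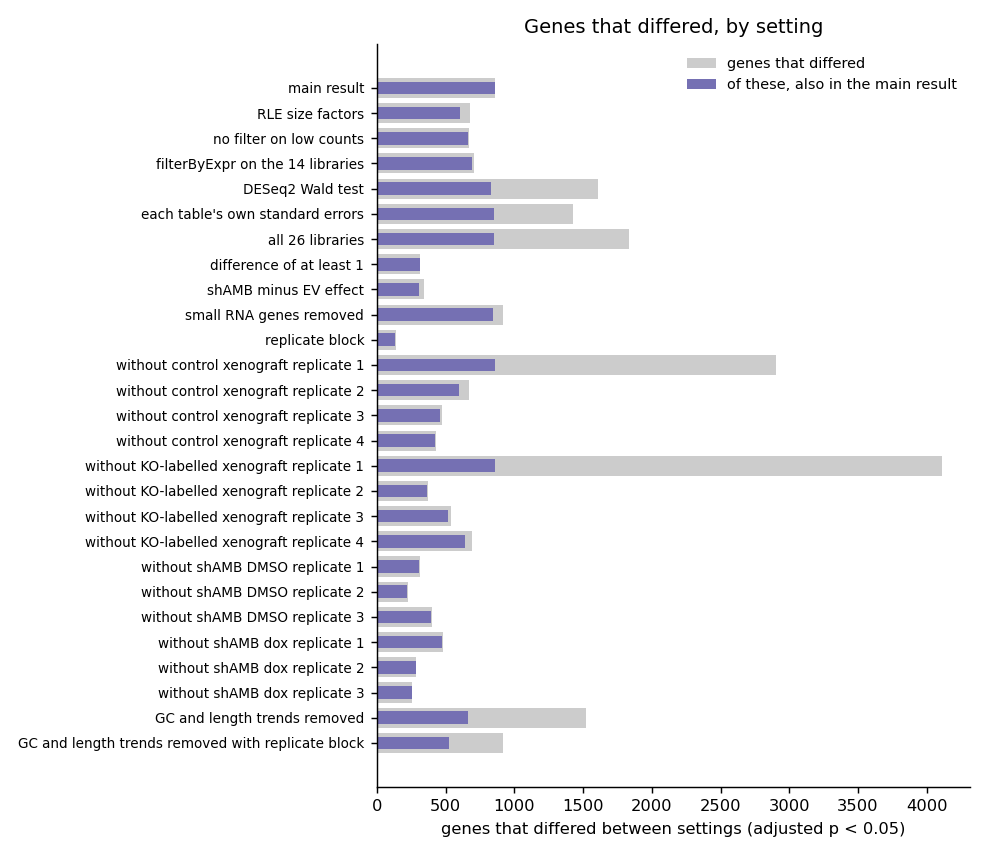
The x axis counts genes whose difference between settings passed an adjusted p of 0.05 under the main and each alternative analysis (grey), and how many of them are among the 862 of the main result (purple). The grey bars run from 136 with replicate number as a block to 4112 without labelled knock-out xenograft replicate 1.

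The difference followed the base composition of the transcripts. GC content and length were those of a gene's GENCODE transcript, the longest protein-coding one or else the longest. GC content had a Spearman's rho of −0.62 with the difference, over 14197 genes with a known GC content. The rho was 0.06 with the xenograft effect, 0.47 with the shAMB effect and 0.66 with the effect of doxycycline in the EV line. With the sh4 effect it had the other sign, −0.31. The median sh4 effect was 0.11 for genes with at most 40% GC and −0.30 for genes above 60% GC. The median difference was 0.15 for genes with at most 40% GC and −0.77 for genes above 60% GC. The classes moved with it: their median GC content was 44.7% and 54.2% for genes that rose and fell in xenografts only, 56.4% and 42.2% for those that rose and fell in culture only, and 44.01% and 51.3% for the opposite classes, against 48.2% over all genes. After smooth trends in GC content and transcript length were removed from each library, a setting chosen after seeing the data, the rho was −0.04 and 1524 genes differed, 681 of them higher. Of the 862 genes, 662 were among them. By class, a difference was kept by 40 of 41 and 72 of 105 xenograft-only genes that rose and fell, by 168 of 265 and 103 of 106 culture-only genes that rose and fell, and by 49 of 49 and 37 of 44 opposite genes. In this setting 5 members changed the sign of their difference.

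**Figure D3:**
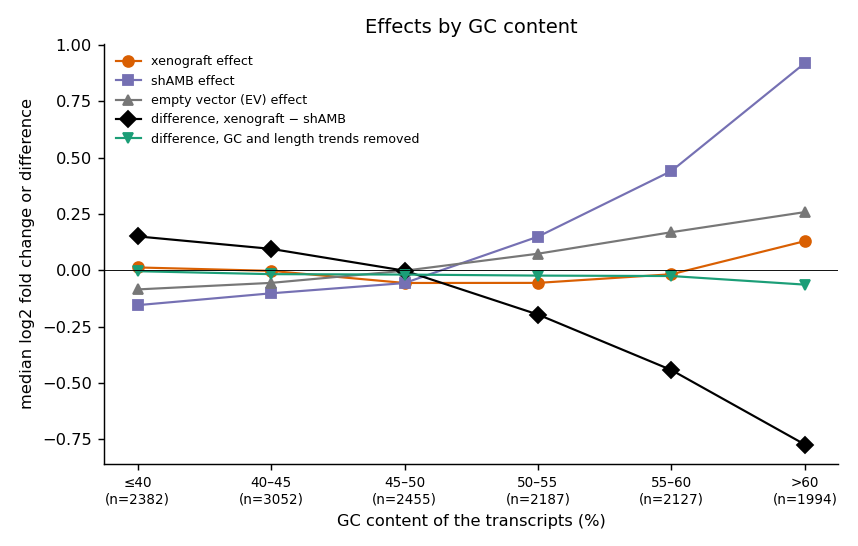
Median log2 fold change or difference (y axis) of genes binned by transcript GC content in percent (x axis, number of genes in brackets), for the xenograft, shAMB and EV effects, the difference, and the difference with the trends removed. The shAMB line rises and the difference falls to −0.77 above 60% GC, while the xenograft line stays between −0.06 and 0.13.

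The 49 genes that rose in xenografts and fell in shAMB culture had a median log2 fold change of 0.65 in xenografts and −0.46 in shAMB cells. Among those with at least 5 CPM in each table and groups apart in both settings, the 5 largest differences belonged to TMEM100, HS3ST2, CADPS, NXPH1 and LIMA1. All 5 passed in all 25 alternatives. That their groups did not overlap in either setting was required by the rule for naming. It held for 33 of the 49 genes and for 4850 of all 14670.

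CADPS (chr3:62398346-62875416) encodes a protein that primes dense-core vesicles for release. It stood at 21.0, 19.9, 18.4 and 20.9 CPM in control and 29.0, 39.4, 37.6 and 36.2 CPM in labelled knock-out xenografts. In shAMB cells it stood at 38.4, 38.6 and 40.01 CPM with DMSO and 24.6, 25.1 and 24.5 CPM with doxycycline. Each labelled knock-out tumour lay above every control tumour, whereas each doxycycline culture lay below every DMSO culture. The log2 fold changes were 0.83 ± 0.11 and −0.66 ± 0.04, a difference of 1.48 ± 0.13 (adjusted p = 3.78e-05).

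TMEM100 (chr17:55719627-55732121), a membrane protein of sensory neurons and vessels, had 9.73, 10.1, 10.6 and 10.02 CPM in control and 13.98, 28.4, 27.7 and 20.4 CPM in labelled knock-out xenografts. It had 24.3, 25.0 and 26.2 CPM with DMSO and 12.5, 12.9 and 13.5 CPM with doxycycline. The labelled knock-out tumours were the more variable group, with replicate 1 nearest to the controls. The difference was 2.12 ± 0.25 (adjusted p = 0.000303). For HS3ST2, a sulfotransferase that modifies heparan sulfate on the cell surface, levels of 16.5 to 18.4 CPM in controls and 39.5 to 59.9 CPM in labelled knock-out tumours stood beside 15.2 to 16.3 CPM with DMSO and 12.6 to 13.5 CPM with doxycycline. Its difference was 1.83 ± 0.18 (adjusted p = 5.17e-05), nearly all of it from the tumours.

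NXPH1, a secreted ligand of synaptic neurexins, changed by 0.69 ± 0.11 in xenografts and −0.56 ± 0.08 in shAMB cells. LIMA1, an actin filament stabilizer, changed by 0.81 ± 0.11 and −0.37 ± 0.06. In sh4 cells the mean level rose with doxycycline, as in tumours, from 13.6 to 19.4 CPM for HS3ST2 and from 127 to 162 CPM for LIMA1. It fell there, as in shAMB cells, from 41.95 to 17.6 CPM for CADPS, 27.5 to 15.2 CPM for TMEM100 and 12.7 to 8.26 CPM for NXPH1. Outside the rule for naming, and chosen after their values were seen, IGFBP3, SEMA3C, MECOM, CAMK4 and HDAC9 were among the 74 genes that passed in all 25 alternatives. IGFBP3, which binds insulin-like growth factors in the extracellular space, had 1.60, 0.948, 1.29 and 1.00 CPM in control and 2.81, 5.05, 4.24 and 3.34 CPM in labelled knock-out tumours, but fell from 17.7, 18.97 and 17.97 to 7.30, 7.78 and 6.78 CPM in shAMB cells. All 4 labelled knock-out tumours were above all controls, and the difference was 2.99 ± 0.28 (adjusted p = 3.94e-05). SEMA3C, a secreted axon guidance cue, changed by 1.70 ± 0.28 and −0.34 ± 0.11. MECOM, a zinc finger transcription factor, changed by 0.46 ± 0.12 and −0.70 ± 0.05. CAMK4, a calcium-dependent kinase of neurons, changed by 0.54 ± 0.09 and −0.34 ± 0.05, and HDAC9, a class IIa histone deacetylase, by 0.37 ± 0.11 and −0.60 ± 0.06. In IQCJ-SCHIP1 all 4 control tumours had 0 counts against 0.384 to 1.14 CPM in labelled knock-out tumours, so no fold is given (it is a readthrough of 2 neighbouring genes, whose reads the counting could split), while shAMB cells went from 4.36 to 5.15 CPM with DMSO to 0.493 to 3.34 CPM with doxycycline.

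The 44 genes with the reverse pattern had a median log2 fold change of −0.47 in xenografts and 0.43 in shAMB cells. Of those named by the rule, PRSS12, SYNPO2, ITPR1 and FAT3 are described, all of which passed in all 25 alternatives. The rule required groups that did not overlap in either setting, which held for 27 of the 44 genes. PRSS12 (chr4:118280038-118353003) encodes the secreted synaptic protease neurotrypsin. It stood at 22.2, 19.5, 19.3 and 19.97 CPM in control and 11.1, 10.99, 8.80 and 10.1 CPM in labelled knock-out xenografts. In shAMB cells it went from 16.4, 13.3 and 15.3 CPM with DMSO to 30.7, 29.4 and 32.2 CPM with doxycycline. The level was thus lower in every labelled knock-out tumour and higher in every doxycycline culture, with log2 fold changes of −0.98 ± 0.12 and 1.04 ± 0.08 and a difference of −2.02 ± 0.15 (adjusted p = 6.36e-06).

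ITPR1 (chr3:4493345-4847506), the channel that releases calcium from the endoplasmic reticulum, stood at 137, 126, 135 and 116 CPM in control and 100.4, 91.2, 94.3 and 94.9 CPM in labelled knock-out tumours. It had 99.2, 93.5 and 95.8 CPM with DMSO and 221, 205 and 234 CPM with doxycycline. The fall in tumours was small (−0.43 ± 0.08) and the rise in culture large (1.19 ± 0.05), and the difference was −1.62 ± 0.10 (adjusted p = 1.36e-06). SYNPO2, an actin-binding protein, changed by −1.01 ± 0.21 and 0.63 ± 0.06, and FAT3, an atypical cadherin, by −0.30 ± 0.09 and 0.76 ± 0.11. The mean level of SYNPO2 fell with doxycycline in sh4 cells, from 33.6 to 15.1 CPM, and in the EV line, from 34.9 to 25.8 CPM. In sh4 cells PRSS12 rose from 13.8 to 18.4 CPM and ITPR1 from 101 to 186 CPM, while FAT3 had 11.6 and 11.3 CPM.

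The cell cycle gene CCND1 was also opposite and passed in all 25 alternatives, though it was chosen after its values were seen. CCND1 encodes cyclin D1, which carries cells from G1 towards S phase together with CDK4 or CDK6. It stood at 168, 149, 160 and 158 CPM in control and 127, 111, 113 and 110 CPM in labelled knock-out tumours. With DMSO it stood at 274, 276 and 267 CPM and with doxycycline at 366, 357 and 368 CPM. Neither setting showed overlap, and the log2 fold changes of −0.46 ± 0.08 and 0.42 ± 0.03 gave a difference of −0.88 ± 0.09 (adjusted p = 0.000124). In the same class TF, the iron carrier transferrin, fell by 2.66 ± 0.21 in tumours on the log2 scale, from 2.16, 2.44, 2.40 and 2.98 CPM to 0.366, 0.422, 0.358 and 0.423 CPM. Its rise in shAMB cells rested on low levels, 0.0260 to 0.246 CPM with DMSO and 0.254 to 0.402 CPM with doxycycline (1.07 ± 0.46, adjusted p = 0.047). INHBA, a subunit of activins, changed by −1.23 ± 0.24 and 1.38 ± 0.32, ALCAM, a cell adhesion molecule, by −0.42 ± 0.09 and 0.33 ± 0.07, and the laminin chain LAMA1 by −0.75 ± 0.10 and 0.15 ± 0.05.

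**Figure D4:**
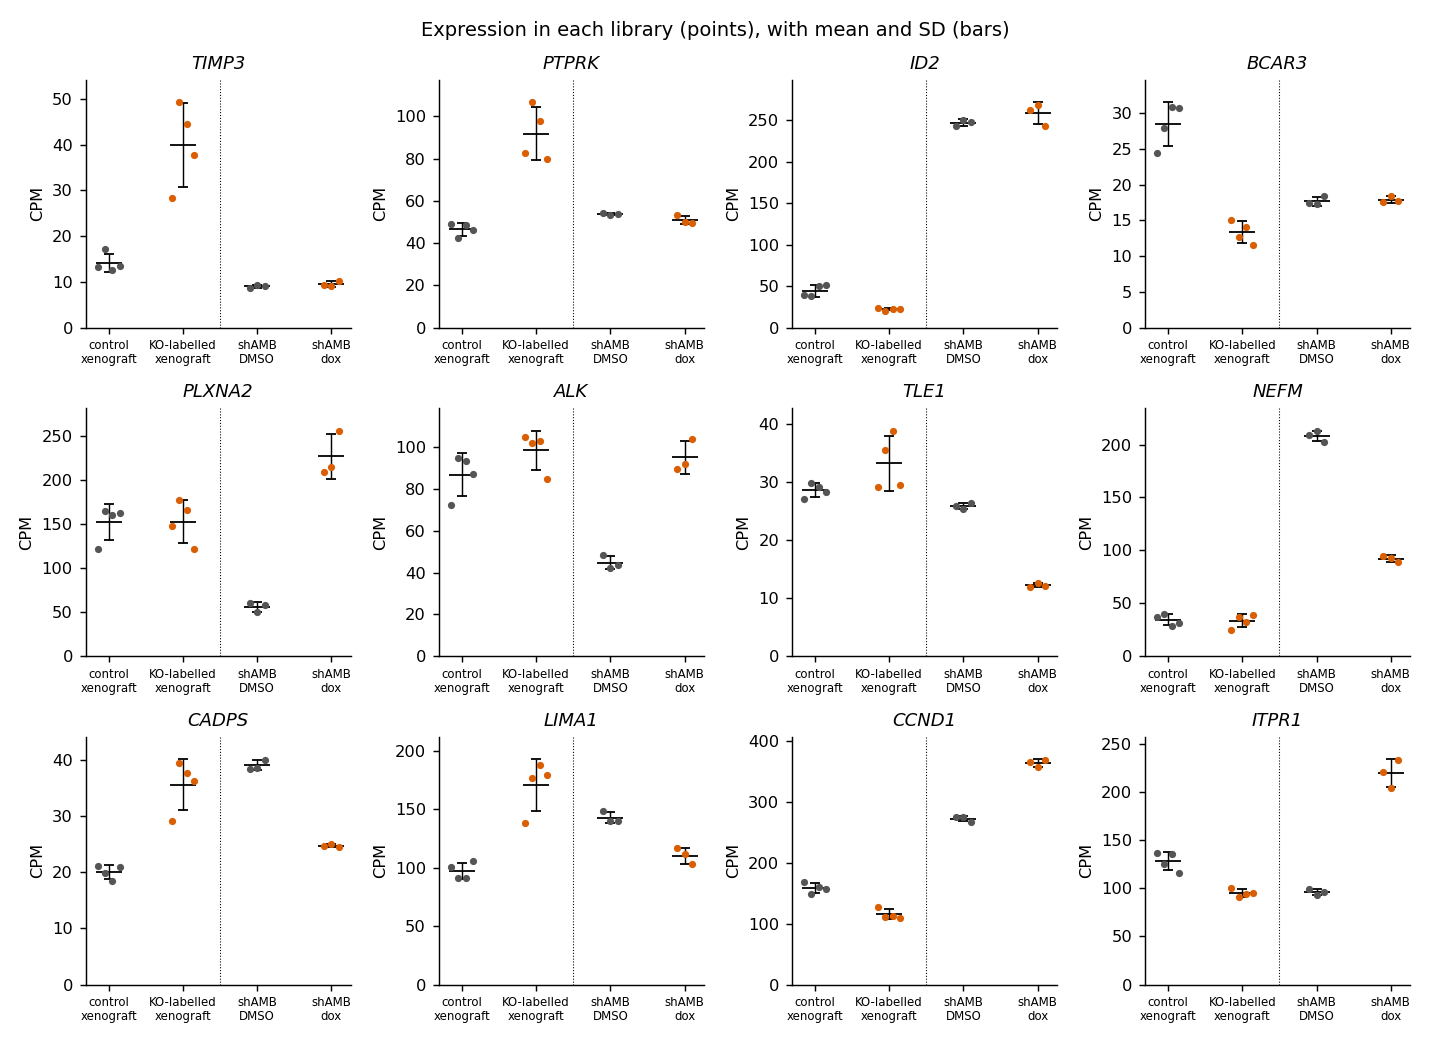
CPM (y axis, from 0) of 12 genes in each library (points) of the 4 groups, with the mean and SD (bars, n = 4 in xenografts and n = 3 in culture). The dotted line separates the 2 tables, between which levels were not compared: CADPS and LIMA1 rise left of it and fall right of it, CCND1 and ITPR1 do the reverse, and the other 8 genes pass the test on 1 side only.

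Only 41 genes rose in xenografts alone, with a median log2 fold change of 0.97 there and −0.09 in shAMB cells. For 32 of the 41 the 95% confidence interval in shAMB cells lay within 1.5-fold either way. TIMP3 (chr22:32801705-32863041), which encodes a matrix-bound inhibitor of metalloproteinases, had the largest difference of those named by the rule. It stood at 13.3, 17.1, 12.5 and 13.5 CPM in control and 28.2, 49.2, 44.5 and 37.7 CPM in labelled knock-out tumours. With DMSO it stood at 8.67, 9.23 and 9.15 CPM and with doxycycline at 9.32, 9.18 and 10.3 CPM. The tumour groups did not overlap while the culture groups did, with log2 fold changes of 1.5 ± 0.17 and 0.09 ± 0.08 and a difference of 1.41 ± 0.23 (adjusted p = 0.00296). TIMP3 also rose with sh4 (0.49 ± 0.08, adjusted p = 0.000146). In the EV line, with no hairpin, its log2 fold change with doxycycline was 0.38, which did not pass (adjusted p = 0.234, unadjusted p = 0.000415), although the groups did not overlap.

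PTPRK (chr6:127968785-128520616) encodes a receptor phosphatase at cell contacts. Its levels were 49.2, 42.4, 48.5 and 46.2 CPM in control and 82.9, 107, 97.9 and 79.9 CPM in labelled knock-out tumours, against 53.3 to 54.1 CPM with DMSO and 49.7 to 53.2 CPM with doxycycline. In culture the groups also did not overlap, but by little, and in the other direction (−0.08 ± 0.05, adjusted p = 0.218). The difference was 1.06 ± 0.13 (adjusted p = 0.000422). SCN9A, a voltage-gated sodium channel of sympathetic and pain neurons, rose by 1.00 ± 0.14 in tumours with −0.02 ± 0.09 in culture. MTUS2, a microtubule-associated protein, rose by 1.04 ± 0.15 in tumours with 0.12 ± 0.08 in culture. GCH1 makes the cofactor of tyrosine hydroxylase. It went from 35.1 to 47.1 CPM in controls to 63.5 to 103 CPM in labelled knock-out tumours, with a difference of 0.88 ± 0.19 (adjusted p = 0.0176) that no longer passed without shAMB DMSO replicate 2 or doxycycline replicates 2 or 3, with adjusted p up to 0.0617 (edgeR). NPAS4, a transcription factor induced by neuronal activity and chosen after its values were seen, had 0.158 to 0.287 CPM in controls and 1.46 to 3.06 CPM in labelled knock-out tumours, beside 0.227 to 0.419 CPM over all 6 shAMB libraries. Its difference was 3.41 ± 0.47 (adjusted p = 0.000822).

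The 105 genes that fell in xenografts alone had a median log2 fold change of −0.65 there and 0.06 in shAMB cells, and 88 of them stayed within 1.5-fold in shAMB cells. Of the 105, 72 still differed once the GC and length trends were removed. ID2 (chr2:8678845-8684461), an inhibitor of basic helix-loop-helix factors that keeps neural precursors from differentiating, is among them. ID2 stood at 39.2, 37.6, 50.2 and 50.9 CPM in control and 23.2, 20.2, 23.0 and 21.9 CPM in labelled knock-out tumours. With DMSO it stood at 243, 251 and 248 CPM and with doxycycline at 263, 269 and 243 CPM. Every labelled knock-out tumour was below every control, and the culture groups overlapped, with log2 fold changes of −1.01 ± 0.12 and 0.06 ± 0.04 and a difference of −1.08 ± 0.14 (adjusted p = 0.000663).

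BCAR3, an adaptor in integrin signalling, had 24.4, 27.96, 30.9 and 30.7 CPM in control and 15.0, 12.8, 14.1 and 11.5 CPM in labelled knock-out tumours, beside 17.2 to 18.4 CPM with DMSO and 17.6 to 18.5 CPM with doxycycline. Its difference was −1.11 ± 0.15 (adjusted p = 0.000805). TEAD2, a DNA-binding partner of YAP and TAZ, fell by 1.04 ± 0.17 in tumours on the log2 scale with 0.16 ± 0.10 in culture. RTL1, an imprinted retrotransposon-derived gene, and PAQR4, a membrane receptor of the progestin and adipoQ family, were named by the rule but were less firm. The difference of RTL1 (−1.23 ± 0.34, adjusted p = 0.0457) was lost without 12 of the 14 libraries in turn, kept only without replicate 1 of either xenograft group, with adjusted p between 0.00141 and 0.142. That of PAQR4 (−0.96 ± 0.26, adjusted p = 0.0436) was lost without 11 of the 14, kept without replicate 1 of either xenograft group or labelled knock-out replicate 4, between 0.00486 and 0.142. Neither passed with the GC and length trends removed (adjusted p = 0.11 and 0.256).

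The largest class held the 265 genes that rose in shAMB culture alone, with a median log2 fold change of 0.85 there and −0.03 in xenografts. It had the highest median GC content of the 6 classes, and 168 of the 265 still differed with the GC and length trends removed. The EV line, which has no hairpin, had a log2 fold change above 0 with doxycycline for 85.3% of the 265 genes, against 52.4% of all genes, though none of the 265 passed the test there. The median EV effect over these genes was 0.16, against 0.85 in shAMB cells. Subtracting the EV effect from the shAMB effect left 54 genes in this class, while the total of genes that differed went from 862 to 340. The subtraction also adds the spread of the EV libraries to each test, and the part of this in the lower counts was not tested.

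PLXNA2 (chr1:208022242-208244384), a receptor for class 6 semaphorins in axon guidance, was the leading example. It stood at 121, 165, 160 and 163 CPM in control and 147, 177, 165 and 122 CPM in labelled knock-out tumours. With DMSO it stood at 60.1, 50.0 and 57.7 CPM and with doxycycline at 209, 215 and 256 CPM. The tumour groups overlapped almost wholly, whereas each doxycycline culture was above every DMSO culture. The log2 fold change was 2.02 ± 0.13 in shAMB cells and 0.00 ± 0.13 in tumours, and the difference was −2.01 ± 0.19 (adjusted p = 3.94e-05), or −1.66 with the GC and length trends removed. With sh4 the log2 fold change of PLXNA2 was −0.22 (adjusted p = 0.198).

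TNS1, a tensin that links integrins to actin, rose by 1.31 ± 0.12 in shAMB cells with −0.02 ± 0.15 in tumours. In sh4 cells the mean level of TNS1 was 41.1 CPM with DMSO and 48.7 CPM with doxycycline. FAM167A, which activates non-canonical NF-kappaB signalling, rose by 1.19 ± 0.06 with 0.00 ± 0.12 in tumours and fell with sh4 (−0.93, adjusted p = 6.38e-09). TTC9B and LZTS1 were named by the rule but rested on single libraries. The difference of TTC9B (−1.16 ± 0.26, adjusted p = 0.024) was lost without labelled knock-out xenograft replicate 2, shAMB DMSO replicates 1 and 2 and shAMB doxycycline replicates 2 and 3, with adjusted p up to 0.0888, and its value with the GC and length trends removed was −0.13. That of LZTS1, a growth suppressor (−1.11 ± 0.27, adjusted p = 0.0299), was lost without 9 of the 14 libraries, kept only without replicate 1 of either xenograft group, replicates 3 and 4 of the labelled knock-out and shAMB doxycycline replicate 1, with adjusted p between 0.0046 and 0.104. In sh4 cells mean levels went down with doxycycline, from 6.33 to 3.36 CPM for TTC9B and from 40.5 to 26.5 CPM for LZTS1.

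ALK, a receptor tyrosine kinase that is mutated in part of neuroblastomas, was chosen after its values were seen and passed in all 25 alternatives. ALK stood at 72.1, 94.7, 93.3 and 87.0 CPM in control and 105, 102, 103 and 84.7 CPM in labelled knock-out tumours. With DMSO it stood at 48.4, 42.2 and 43.6 CPM and with doxycycline at 89.3, 92.0 and 104 CPM. The rise with doxycycline (1.09 ± 0.10) was present in each culture, whereas the tumour groups overlapped (0.18 ± 0.11, adjusted p = 0.198). The difference was −0.90 ± 0.15 (adjusted p = 0.00296), and −0.42 with the GC and length trends removed. SOX11, a transcription factor of sympathetic neuroblasts, rose from 144, 150 and 137 CPM to 240, 229 and 227 CPM in shAMB cells, while 210 to 241 CPM in control and 184 to 237 CPM in labelled knock-out tumours overlapped (difference −0.76 ± 0.12, adjusted p = 0.00259). CXCL14, a chemokine, rose in culture by 3.04 ± 0.28, from 0.286 to 0.455 CPM to 2.91 to 2.94 CPM. In tumours its log2 fold change was −0.38 ± 0.30 (adjusted p = 0.338). In sh4 cells mean levels went up with doxycycline, from 52.1 to 66.5 CPM for ALK, 132 to 162 CPM for SOX11 and 0.233 to 0.634 CPM for CXCL14.

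The 106 genes that fell in shAMB culture alone had a median log2 fold change of −0.79 there and 0.04 in xenografts, and 103 of them still differed with the GC and length trends removed. NEFM, the medium chain of neurofilaments, fell from 209, 213 and 203 CPM to 94.9, 92.8 and 88.8 CPM in shAMB cells, with no overlap. In tumours it stood at 37.4, 39.8, 28.2 and 31.7 CPM in control and 25.2, 37.2, 31.9 and 38.7 CPM in the labelled knock-out, which overlapped. The log2 fold changes were −1.18 ± 0.05 and −0.04 ± 0.15, and the difference was 1.13 ± 0.19 (adjusted p = 0.00368). TLE1 (chr9:81583683-81689547), a corepressor of the Groucho family, fell from 25.9, 25.3 and 26.5 CPM to 11.9, 12.6 and 12.1 CPM in shAMB cells, beside 27.1 to 29.9 CPM in control and 29.2 to 38.9 CPM in labelled knock-out tumours. Its difference was 1.30 ± 0.14 (adjusted p = 0.000124).

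SHOX2, a homeodomain factor of sensory and motor circuits, fell by 1.18 ± 0.06 in shAMB cells on the log2 scale with −0.02 ± 0.10 in tumours. TOX, an HMG-box factor, fell by 1.00 ± 0.08 with 0.02 ± 0.13 in tumours. CARTPT, a neuropeptide precursor, fell by 1.42 ± 0.08 in shAMB cells, from 22.1 to 23.8 CPM to 7.62 to 9.04 CPM. It had 241 to 327 CPM in control and 174 to 387 CPM in labelled knock-out tumours, and it rose with sh4 by 2.36 (adjusted p = 5.4e-12). The other genes of this class named by the rule had lower mean levels with doxycycline than with DMSO in sh4 cells too. These went from 26.6 to 16.7 CPM for TLE1, 50.3 to 36.8 CPM for SHOX2, 171 to 130 CPM for NEFM and 20.5 to 15.4 CPM for TOX. Among genes that passed in all 25 alternatives, chosen after their values were seen, the adhesion proteins LRRC4C (−2.74 ± 0.14 in shAMB cells, −0.28 ± 0.15 in tumours) and CNTN1 (−0.71 ± 0.07 and 0.24 ± 0.11) belonged to this class. So did RGS2 (−1.16 ± 0.08 and −0.23 ± 0.13) and RGS4 (−1.20 ± 0.09 and −0.33 ± 0.13), which switch off G protein signalling, and COL3A1, a fibrillar collagen (−1.23 ± 0.09 and 0.33 ± 0.27).

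How the counting used strand is not stated, so genes that overlap a gene on the other strand are less certain. The overlap was 43.4% of the length of PRSS12, 44.3% of CDK4 and 41.7% of PAQR4.

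The promoters were searched for E-boxes, the motifs of basic helix-loop-helix proteins. No RUNX1T1 binding data were used here, and regions away from promoters were not searched. Windows of 250 bases before to 50 bases after the RefSeq start were searched on both strands for CACGTG, the E-box of MYC and MAX, and for CATCTG or its reverse complement CAGATG, a HAND2-type E-box, among 10768 of the 14670 genes with a window. The CATCTG type was present in 9.75% of all windows, in 22.0% of the windows of genes that rose in xenografts and fell in shAMB culture (9 of 41), in 15.0% of those of genes that fell in culture only (12 of 80), in 13.8% (4 of 29) and 4.60% (4 of 87) of genes that rose and fell in xenografts only, in 7.03% of genes that rose in culture only (13 of 185) and in 3.45% of the reverse opposite class (1 of 29). CACGTG was present in 10.1% of all windows, and in the same order of classes in 7.32%, 3.75%, 6.90%, 14.9%, 10.8% and 10.3%. These shares are a description of small sets that differ in base composition. A match is not a binding site.

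The following 30-base stretches show the match in capitals with its 12 flanking bases on either side, 5′ to 3′ on the gene's strand, for 4 genes with a CATCTG-type match and for FAXDC2, the only one of the 52 windows of genes that passed in all 25 alternatives to hold CACGTG. They are from RefSeq on GRCh38.p14. In the first 3 the match begins 1 base before the annotated start.
IGFBP3, chr7:45921256-45921285, minus strand: gcccgggccgccCAGATGcgagcactgcgg
CAMK4, chr5:111223570-111223599, plus strand: tctgagccacttCAGATGctgagattgaac
ALK, chr2:29921570-29921599, minus strand: cgggcgcccaggCAGATGcgatccagcggc
MECOM, chr3:169663752-169663781, minus strand: ctcggcgattgcCATCTGacaagatctcca
FAXDC2, chr5:154850660-154850689, minus strand: aacttttttcatCACGTGcctggtccgagc

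The sh4 effect was not used in choosing these genes and gives another readout of a RUNX1T1 hairpin in culture, although the sh4 libraries shared the filter and the estimate of spread with the shAMB libraries. Over all 14670 genes, 22.9% rose and 18.2% fell with sh4. Of the 41 genes that rose in xenografts alone, 19 rose with sh4 (46.3%) and 9 fell (22.0%). Of the 105 that fell in xenografts alone, 37 fell (35.2%) and 18 rose (17.1%). Both shares in the xenograft direction lay above the background. Of the 265 genes that rose in shAMB culture alone, 51 rose (19.2%) and 57 fell (21.5%), and of the 106 that fell there, 26 fell (24.5%) and 31 rose (29.2%). Of the opposite genes that rose in tumours, 19 of 49 rose with sh4 (38.8%) and 11 fell (22.4%), and of the reverse class 10 of 44 rose (22.7%) and 8 fell (18.2%). With the GC and length trends removed, sh4 raised 28.4% and lowered 28% of all genes. The shares in the xenograft direction were then 46.3% and 42.9% for the xenograft-only classes and 34.7% and 27.3% for the opposite classes. Shares in the culture direction also lay above the background in some classes: 35.1% of the genes that rose in culture only rose with sh4, 37.7% of those that fell there fell, and in the opposite classes 30.6% fell and 38.6% rose. In the EV line 2 of the 610 genes passed the test, against 14 of 14905, and 64 had an unadjusted p under 0.05, against 869 of 14670 genes.

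Of 50 genes of DNA replication driven by E2F factors, 43 fell in xenografts and 32 in shAMB cells, against 3131 and 4206 of all 14670 genes. Their median log2 fold changes were −0.61 and −0.25, against 0.00 and 0.10 over all genes. The difference passed for 17, all lower in xenografts, against 4.04% of all genes, and for 26, all lower, with the GC and length trends removed. This count rested on single libraries: it was 8 and 6 without control xenograft replicates 3 and 4, 6 without labelled knock-out replicate 2, 4, 1 and 9 without shAMB DMSO replicates 1, 2 and 3, 2 without shAMB doxycycline replicate 2 or 3, and 26 without replicate 1 of either xenograft group. It was 9 with DESeq2's size factors, 5 after subtraction of the EV effect and 0 with the replicate block. The helicase subunit MCM5 changed by −0.39 ± 0.23 in tumours and 0.99 ± 0.27 in shAMB cells, a difference of −1.38 ± 0.33 (adjusted p = 0.0278). The polymerase POLE fell by 0.67 ± 0.12 in tumours with 0.14 ± 0.12 in culture, a difference of −0.81 ± 0.17. The differences of E2F1 (−0.82 ± 0.20) and the licensing factor CDT1 (−1.19 ± 0.32) did not pass with the trends removed. In bulk samples, fewer cycling cells and less RNA per cell cannot be told apart.

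The counts that follow stand beside 1.84% of all genes higher and 4.04% lower, and, with the trends removed, 681 and 843 of 14670. As for the E2F genes, higher and lower refer to the effect in xenografts relative to that in culture, whichever way each effect went. Among 50 genes of G2 and mitosis 5 were lower in xenografts relative to culture, from 0 without shAMB DMSO replicate 2 or doxycycline replicate 2 or 3 to 8 without control xenograft replicate 1, including KIF18B, ESPL1, AURKB and CDC20 with differences of −0.92, −0.83, −0.77 and −0.59. Of 42 MYC target and ribosome biogenesis genes 4 were lower, 1 without shAMB DMSO replicate 2 and 16 without replicate 1 of either xenograft group, namely RRP9 (−1.20), CAD (−0.79), CDK4 (−0.65) and FBL (−0.59). CDK4 stood at 186 to 214 CPM in control and 112 to 151 CPM in labelled knock-out tumours, while 236 to 258 CPM and 241 to 262 CPM in shAMB cells overlapped, and it passed without each library in turn. Cytosolic ribosomal protein genes had medians of −0.50 in tumours and −0.24 in culture, with 1 of 60 different (RPLP0, −0.66). Of 51 mitochondrial ribosomal genes MRPL11 differed (−0.55), and of 49 respiratory subunits UQCRB did (0.61), both falling in both settings. Of 14 histone genes tested HIST1H1C differed (−1.44). None of the 26 listed symbols, older and newer names of the protein-coding genes of mitochondrial DNA, was among the genes tested.

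Genes of cholesterol synthesis and uptake had a median of −0.53 in tumours and −0.05 in culture over 28 genes. Of these 4 differed with a lower effect in tumours and 1 with a higher effect. ACAT2, which makes acetoacetyl-CoA at the start of the pathway, fell from 109, 83.6, 111 and 109 CPM to 35.6, 32.8, 40.3 and 32.0 CPM in tumours, and from 146, 148 and 149 CPM to 106, 110 and 96.9 CPM in shAMB cells. It fell in every sample of both settings and further in tumours (−1.55 ± 0.12 against −0.50 ± 0.06, adjusted p = 0.000812), in all 25 alternatives. SREBF2, the regulator of the pathway (−0.71), FDPS (−0.66) and FDFT1 (−0.65) had differences of the same sign, of which SREBF2 and FDPS did not pass with the GC and length trends removed. Of 43 hypoxia and glycolysis genes 3 were lower and 1 higher in tumours, ANGPTL4 (−2.76), HK2 (−0.64) and HILPDA (−0.63) against LOX (0.83). ANGPTL4 rested on low mean levels, 0.17 CPM with DMSO and 0.67 CPM with doxycycline in shAMB cells. In tumours it had 1.21 CPM in control and 0.69 CPM in the labelled knock-out.

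Of 31 p53 target genes 4 were higher and 1 lower in xenografts. CDKN1A, the inhibitor of cyclin-dependent kinases, fell in shAMB cells (−0.84 ± 0.14) with 0.35 ± 0.23 in tumours, a difference of 1.19 ± 0.29 (adjusted p = 0.031). BTG2, an antiproliferative gene, changed by 0.55 ± 0.13 in tumours and −0.25 ± 0.05 in shAMB culture and passed in all 25 alternatives. In sh4 cells, however, its mean level rose from 40.5 CPM with DMSO to 98.4 CPM with doxycycline, as in tumours. RRM2B (0.58) and SESN1 (0.57) had smaller differences. Of 40 genes of the ATF4 response 3 were higher, ATF3 (0.92), ALDH1L2 (0.81) and the cystine transporter SLC7A11 (0.72). Of 34 NF-kappaB and immediate early genes 1 was higher (ATF3) and 1 lower (FOSL2, −0.85), and 23 and 25 of the 34 rose in xenografts and in shAMB cells, with medians of 1.15 and 1.01, against 3012 and 5540 of all 14670 genes. Of 24 interferon-stimulated genes STAT2 was lower (−0.63), and of 16 MHC class I genes 2 were, among them the chaperone CALR (−0.66).

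The adrenergic regulators split. Of 24 tested, 5 were higher and 5 lower in xenografts relative to culture, and 9 and 3 with the GC and length trends removed. ISL1, a homeodomain factor, rose more in tumours (0.93 ± 0.11 against 0.25 ± 0.05). PHOX2A (−1.26), TBX2 (−1.50), GATA2 (−1.15) and SOX11 (−0.76) were lower, PHOX2A no longer with the trends removed (−0.37). Over the 10 neuroblast markers 2 were higher and 1 lower, and their summed level of 5091 to 6332 CPM in control tumours holds MYCN as its largest part, and all 10 were detected in each group. Of 22 mesenchymal markers CD44 (1.26) and ANXA2 (0.58) were higher, and FOSL2 (−0.85) and SOX9 (−0.75) lower. The mean level of ANXA2 fell in both settings, less in tumours, and those of FOSL2 and SOX9 rose in both, less in tumours. Of 45 developmental regulators POU4F2 was higher (0.96) and SOX9 lower.

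Of 67 neuronal and synaptic genes 8 were higher and 3 lower, beside 1.84% and 4.04% of all genes. With the trends removed 13 were higher and 5 lower, beside 681 and 843 of all 14670 genes. DCX, a microtubule protein of migrating neurons, rose from 46.8, 61.5, 36.6 and 53.5 CPM to 131, 240, 228 and 250 CPM in tumours and from 83.1, 84.4 and 77.8 CPM to 149, 142 and 148 CPM in culture. It rose in both settings without overlap, and more in tumours (2.10 ± 0.21 against 0.84 ± 0.06, adjusted p = 0.0159). VGF, a granule protein, rose less in tumours (1.98 ± 0.21 against 3.29 ± 0.22), a difference of −1.31 that was −0.09 with the trends removed. The neurotrophic factor receptors GFRA3 (−1.36) and GFRA2 (−1.35) were lower. Of 16 catecholamine genes GCH1 and MAOA (0.71) were higher. MAOA fell in both settings, on average from 427 to 211 CPM in tumours and from 337 to 102 CPM in shAMB cells. In the extracellular matrix list 2 of 48 were higher and 4 lower, led by the laminin chain LAMA3 (−1.62), COL3A1 (1.56), the thrombospondin THBS1 (−1.05) and LAMA1 (−0.90). In the axon guidance list 3 of 60 were higher and 4 lower, led by NTN1 (−2.18), SEMA3C (2.04), PLXNA2 (−2.01) and NTNG2 (−1.45). The mean levels of NTN1 and NTNG2 rose in both settings, less in tumours. With DMSO in shAMB cells the mean levels of NTN1 and LAMA3 were low, 0.33 and 0.49 CPM.

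**Figure D5:**
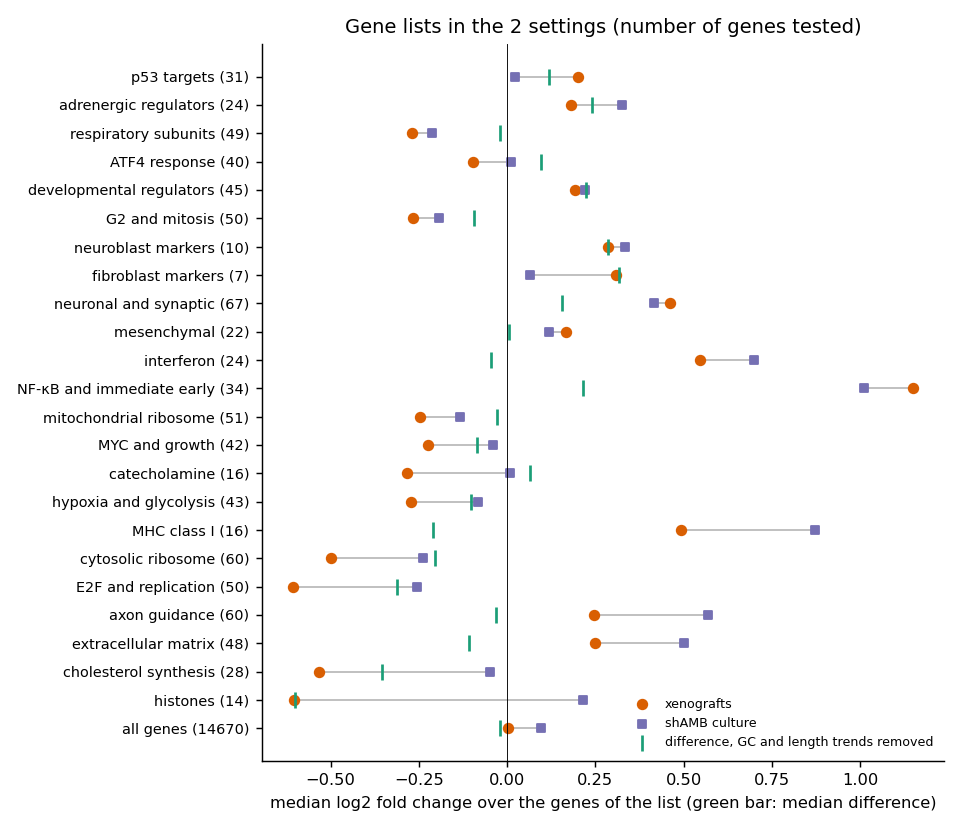
Median log2 fold change (x axis) over the genes of each list in xenografts (circles) and shAMB culture (squares), and the median difference with the GC and length trends removed (green bars), with the number of genes tested in brackets. E2F and replication genes sit at −0.61 in xenografts and −0.25 in culture, and NF-kappaB and immediate early genes above 1 in both.

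Single differences of list members were less firm than the class examples. Of the 60 list genes taken by the rule whose difference passed, 12 passed without each of the 14 libraries in turn, namely CDK4, ACAT2, BTG2, SOX11, GFRA2, LAMA3, COL3A1, LAMA1, NTN1, SEMA3C, PLXNA2 and VWF. The other 48 did not pass without at least 1 library, 46 of them without shAMB DMSO replicate 2 and 12 without labelled knock-out xenograft replicate 4, with adjusted p up to 0.15.

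Markers of host cells were measured because a xenograft holds mouse tissue whose reads can align to human genes. The summed level of 13 fibroblast markers was 74.9 to 117 CPM in control and 109 to 162 CPM in labelled knock-out tumours, and 107 to 128 CPM and 143 to 169 CPM in shAMB cells, which hold no mouse cells. Of its 7 tested genes COL3A1 differed. The sum of 13 endothelial markers was 9.90 to 17.2 CPM and 11.9 to 19.996 CPM in tumours and 3.10 to 3.42 CPM and 7.39 to 10.2 CPM in culture. Of its 3 tested genes VWF differed (−2.75 ± 0.34), rising only in culture, and PECAM1, CDH5 and TEK averaged under 1 CPM in every group. The sum of 16 myeloid markers was 1.41 to 1.95 CPM and 4.04 to 4.93 CPM in tumours and 0.858 to 1.02 CPM and 1.92 to 3.16 CPM in culture. MRC1, the macrophage mannose receptor, had 0.0335 to 0.179 CPM in control and 1.12 to 3.01 CPM in labelled knock-out tumours and a rise in culture too, and neither MRC1 (0.88, adjusted p = 0.606) nor CD68 (−0.75, adjusted p = 0.191) differed by the test. Of 2 fat, muscle and skin genes tested (KRT10, ACTA1) and 1 blood gene (ITGA2B) none passed. The part of host cells in the tumour-only changes was not tested.

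Some genes could be tested in only 1 table. Of 1290 genes kept in the xenografts alone, being too low in culture, 370 rose and 42 fell, and 77 of the 1290 were small RNA genes. Over all 15960 genes tested in xenografts, 6555 changed and 3382 of these rose. The filter keeps a gene that is high enough in only 1 group, so the direction of such a gene can follow from the filter. Of 235 genes kept in the culture alone, 62 rose and 32 fell in shAMB cells, none with 5 CPM. CNGA3, a subunit of the cone photoreceptor channel, had 0.0179 to 0.117 CPM in control and 2.30 to 7.81 CPM in labelled knock-out tumours. With 1 to 7 counts in control tumours, it passed the filter through the labelled knock-out tumours. THRB, a thyroid hormone receptor, had 1.65 to 2.60 CPM and 6.18 to 12.2 CPM (2.17 ± 0.25, adjusted p = 8.42e-05). The RNA genes SNHG24 (2.59 ± 0.22) and NAV2-AS5 (2.27 ± 0.28) and the pseudogene PTPRVP (1.93 ± 0.40) also rose, with at most 11 counts in any shAMB library. The 5 genes with lower levels taken by the rule, of the 42 that fell, were histone genes, HIST1H1D (−1.21 ± 0.17), HIST2H2AB (−1.28 ± 0.21), HIST2H2BF (−1.09 ± 0.30), HIST1H4B (−0.84 ± 0.27) and HIST1H2AB (−0.82 ± 0.15), which belong to families of near-identical copies and had at most 9 counts in any shAMB library. In the xenografts these 5 had between 883 and 14134 counts, and their response in culture was not measured. The part of the library preparation in this gap, beside the gap in small RNA genes, was not tested.

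At the threshold of the difference, KMT2D (adjusted p = 0.0499) and FAU (0.05) were the last genes inside, and KIAA1456 and EMC1 (0.0501) the first outside.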

How the data were processed

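RNA of KELLY xenografts (8 libraries) and cultured KELLY lines (18 libraries) was sequenced by the authors after a stranded total RNA kit, although the molecule label reads polyA RNA. The deposited expected counts and TPM per gene were made by the authors with RSEM after STAR alignment to hg38, and SAMtools is named too, per the labels' processing notes. The methods of the study give versions for libraries of mouse ganglia only. For these libraries the versions, the treatment of mouse reads in xenografts and the use of strand in counting are not given in the sources used here. The TPM values served only to check RUNX1T1, whose log2 ratio was −0.20 in xenografts (exact permutation test, two-sided p = 0.457, smallest possible 0.0286) and 0.25 in shAMB cells (p = 0.1, the smallest possible).

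Expected counts were rounded, genes too low by filterByExpr were left out and TMM factors were computed within each table (R 4.3.3, edgeR 4.0.16, limma 3.58.1). The edgeR quasi-likelihood test was fitted to the 18 culture libraries together and to the 8 xenografts alone. The difference of effects is the xenograft minus the shAMB log2 fold change, with its SE and p from 1 fit to 14 libraries and Benjamini-Hochberg adjustment over 14670 genes. Errors after ± are SE. DESeq2 1.42.0 was an alternative. The scripts were tested on simulated data. No replicate pair was identical or within sampling noise.

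The genes named were, in each class, the 5 with the largest absolute difference among those with at least 5 CPM on average in each table, groups not overlapping where changed and a 95% interval within 1.5-fold in the other setting. Up to 4 genes of each list that passed, or 2 by level where none did, up to 5 genes per direction kept in 1 table only, and RUNX1T1, MYCN and MAX were added. Some genes that this rule takes are not reported here. The members and lists were chosen with earlier results of these data known. Removal of GC and length trends (lowess, span 0.3) was added after the data were seen. Promoters are from RefSeq (GRCh38.p14).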

Additional observations from a re-analysis of the deposited data

Results flagged for a closer look

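The tests of the difference between settings passed for 862 genes, of which 41 rose and 105 fell in xenografts only, 265 rose and 106 fell in shAMB culture only, 49 rose in xenografts and fell in culture and 44 did the reverse. Among the genes with opposite effects the differences on the log2 scale were 2.12 for TMEM100, 1.83 for HS3ST2, 1.48 for CADPS, 1.24 for NXPH1 and 1.19 for LIMA1. They were −2.02 for PRSS12, −1.64 for SYNPO2, −1.62 for ITPR1 and −1.06 for FAT3.

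One sample stood far from the other 3 of its xenograft group in 16 of 303 groups examined by Dixon's test, where chance gives about 1 in 20. In the controls, replicate 1 was high for SCN9A (22.9 CPM) and low for PAQR4 (17.4 CPM), PLXNA2 (121 CPM) and LZTS1 (52.4 CPM). Control replicate 2 was low for ACAT2 (83.6 CPM) and FDFT1 (63.3 CPM) and high for RAD54L2 (88.04 CPM), and control replicate 3 was low for PLCXD3 (1.43 CPM). In the labelled knock-out, replicate 1 was low for DCX (131 CPM) and LPPR4 (178 CPM) and high for NTNG2 (9.38 CPM). Labelled knock-out replicate 4 was low for TEAD2 (6.98 CPM), TNS1 (38.6 CPM), NTN1 (2.17 CPM), ALK (84.7 CPM) and RIMS3 (217 CPM). The cause was not tested.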

How the results depend on the processing

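The total of 862 genes became 1610 with DESeq2, 1428 with each table's own standard errors, 1837 with all 26 libraries in 1 fit, 317 with a difference of at least 1, 340 after subtracting the EV effect and 1524 with the GC and length trends removed. For genes that rose in xenografts only the count was 24 with no filter, 117 (DESeq2), 82 (own errors), 119 (26 libraries), 19 (at least 1), 116 (trends removed) and 68 (trends removed with the block). For those that fell there it was 60 with DESeq2's size factors, 171, 181 and 215 in the next 3, 19 (at least 1) and 42 (minus EV). For those that rose in culture only it was 141 (size factors), 415, 480, 543, 105 (at least 1), 54 (minus EV) and 159 (trends with the block). For those that fell there it was 304, 187, 270, 39 (at least 1), 56 (minus EV) and 208 (trends removed). The opposite genes higher in xenografts numbered 30 (at least 1), 27 (minus EV) and 92 (trends removed), and the reverse class 28 (size factors), 21 (at least 1), 21 (minus EV), 91 (trends removed) and 70 (trends with the block).

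Without 1 library at a time the total ranged from 224 to 4112, the xenograft-only classes from 10 to 285 (rose) and 18 to 682 (fell), the culture-only classes from 39 to 1538 and 28 to 374, and the opposite classes from 27 to 78 and 22 to 121. With replicate number as a block 136 genes differed, in the order of classes above 7, 6, 31, 21, 18 and 11. Whether equal numbers mark paired samples is not stated. Same-numbered deviations correlated between −0.50 and 0.37, and only xenograft number 3 correlated best with itself. So few correlations cannot decide whether samples were paired.

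RUNX1T1 in shAMB cells turned to −0.0187 with DESeq2's size factors and −0.0183 with DESeq2. In xenografts it passed at −0.33 with trends removed, with the block too, when its difference (−0.36) also passed. The MYCN difference turned to 0.29 and 0.27 in these settings, and that of MRC1 ranged from −0.0490 without shAMB DMSO replicate 2 to 1.42 without replicate 3. Over the named genes and alternatives 1884 values kept their call, 576 lost it, 6 gained it and 3 reversed. The cause was not tested. Lower counts limit genes under 1 CPM.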
